A study of Mus musculus with 2 samples.

Results

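Cycling cells were picked out of a culture of mouse embryonic fibroblasts (MEF), primary connective tissue cells of the embryo, from single-cell RNA counts. A cell was selected on its own transcripts: it had at least 3 UMIs (unique molecular identifiers, 1 per captured RNA molecule) of Top2a and Mki67 together. Of 6013 MEF cells kept, 475 were chosen by this rule, or 7.90% (exact binomial 95% interval 7.23 to 8.61). They were set against 4833 resting MEF cells, called so because they held at least 5000 UMIs and none of Top2a or Mki67. Another 386 MEF cells with 1 UMI, 84 with 2 and 235 shallow cells with none belonged to neither set. The same contrast was made in the iMPC culture, induced myogenic progenitor cells generated from fibroblasts with MyoD and a treatment abbreviated F/R/C, kept in medium containing F/R/C and described as 1 stable clone. There, 2263 of 5319 cells with at most 1 Myog UMI were cycling (42.5%) and 2290 were resting. The MEF culture was kept in MEF media. Both samples carried the genotype Tg:Pax7-nGFP/C57BL6;DBA2, and no ages or sorting of cells are labelled. The 2 libraries together gave 15362 cells. With 1 library per culture there is no replication and no test of any difference, and every interval covers counting error only. Because the members were chosen on cycle transcripts, the contrast of cycling with resting cells is a description of the chosen cells, given as levels and as log2 ratios of levels (cycling over resting).

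Dividing cells copy their DNA in S phase and separate the copies in mitosis. Licensing factors load the MCM helicase on origins in G1, cyclin E and E2F factors open S phase, and cyclins A and B with Cdk1 carry the cell into mitosis, which ends when the anaphase-promoting complex (APC/C) has the cyclins destroyed. Top2a is the topoisomerase that untangles sister chromatids, Mki67 encodes the Ki-67 protein that coats mitotic chromosomes, and Cenpf encodes a large kinetochore protein. Fibroblasts in culture make collagen-rich matrix and actin stress fibres, and after repeated passages build up Cdkn2a and stop dividing.

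The start regions of genes on which the rule and the largest ratios rest are shown because many cycle genes share short promoter motifs. The cell cycle genes homology region (CHR, TTTGAA) is bound by the MuvB complexes that switch mitotic genes off in rest and on in G2, CCAAT is the box bound by NF-Y, and E2F motifs (TTTCGCGC or TTTGGCGC) mark genes of S phase. The genes printed are the 3 markers and, from the replication and mitosis lists, those with the largest MEF ratios at 20 CPM or more (UMI counts scaled to a total of 1000000): Clspn and Tk1, and Nusap1. Esco2 was also chosen by this rule. Each line gives 150 bases upstream of the gene, read 5′ to 3′ on its own strand from RefSeq (GRCm38.p6), with motif matches on either strand in capitals:
Top2a: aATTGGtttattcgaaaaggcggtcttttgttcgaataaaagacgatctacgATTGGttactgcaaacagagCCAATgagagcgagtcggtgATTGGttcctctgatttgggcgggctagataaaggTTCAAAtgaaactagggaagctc
Mki67: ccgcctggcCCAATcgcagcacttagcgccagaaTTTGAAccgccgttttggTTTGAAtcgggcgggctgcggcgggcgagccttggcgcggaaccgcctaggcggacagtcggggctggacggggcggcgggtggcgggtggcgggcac
Cenpf: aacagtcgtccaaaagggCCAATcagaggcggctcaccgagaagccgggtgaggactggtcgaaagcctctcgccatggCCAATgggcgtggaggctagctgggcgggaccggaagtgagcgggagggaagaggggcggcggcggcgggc
Clspn: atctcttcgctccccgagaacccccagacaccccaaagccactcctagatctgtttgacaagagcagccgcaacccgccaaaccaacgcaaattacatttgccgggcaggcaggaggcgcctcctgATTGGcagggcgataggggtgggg
Tk1: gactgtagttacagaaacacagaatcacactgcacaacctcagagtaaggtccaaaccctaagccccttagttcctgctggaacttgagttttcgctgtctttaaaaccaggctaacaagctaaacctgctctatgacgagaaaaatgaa
Nusap1: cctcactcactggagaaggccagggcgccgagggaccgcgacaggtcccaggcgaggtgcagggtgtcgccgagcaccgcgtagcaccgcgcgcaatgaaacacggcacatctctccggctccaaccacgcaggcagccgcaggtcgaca
The Top2a stretch is chr11:99024190-99024339 on the minus strand, that of Mki67 chr7:135716380-135716529 on the minus strand and that of Cenpf chr1:189688087-189688236 on the minus strand. Those of Clspn, Tk1 and Nusap1 are chr4:126556785-126556934 (plus), chr11:117826093-117826242 (minus) and chr2:119618148-119618297 (plus). All lie outside the gene as GENCODE M21 draws it, and those of Clspn and Tk1 therefore stop 45 and 78 bases short of the RefSeq start. With positions counted from the RefSeq start, the Top2a stretch held CCAAT or its reverse ATTGG at -149, -98, -78 and -58 and CHR, as the reverse TTCAAA, at -23. That of Mki67 held CHR at -116 and -98 and a CCAAT match at -141. Cenpf had its CHR match just past the start, outside the printed stretch, and its CCAAT matches at -132 and -71. No match was found in the windows of Tk1 and Nusap1, which says only that these letters are not there.

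The whole RefSeq window, 250 bases before to 50 after the start, was searched in the same way for all 32851 promoters listed. Of the 109 genes of the mitosis lists, 88 matched, with 95 promoters. CHR was in 56.8% of these, against 17.9% of all promoters, and CCAAT in 67.4%, against 37.4%. Both together were in 44.2%, against 6.95% of all promoters. E2F matches were in 5.26%, against 0.813%. The promoters of mitosis genes thus held the CHR and CCAAT letters more often than promoters at large. The same count is not read for the replication lists, since only 46 of their 58 genes, 79.3%, matched. That was under the share required for a list to be read, which the mitosis lists passed narrowly at 80.7%. These are matches of letters, which can overlap, and no binding was measured.

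Depth differed between the sets. Cycling MEF cells held a median of 24830 UMIs and 5047 genes, resting ones 18836 UMIs and 4215 genes. Mitochondrial transcripts were a median of 4.82% and 5.90% of UMIs, and ribosomal protein transcripts 19.1% and 20.9%. The part of depth in the results was not tested beyond the values with deeper or thinned cells given below. In iMPC the medians were 22497 and 14848.5 UMIs. The libraries shared 16 kept barcodes, where 8.27 would be shared by random draws. Fibroblast markers (Col1a1, Col1a2, Thy1, Col3a1, Pdgfra and Dcn) summed to 5591 CPM in cycling and 6242 CPM in resting MEF cells, and all members held at least 1 of their UMIs. Skeletal muscle markers summed to 0.326 and 0.147 CPM, with Myog, Ckm and Myf5 at 0 in members, and erythroid and endothelial markers to at most 0.570 CPM. Immune markers summed to 3.01 and 3.66 CPM, epithelial markers to 10.0 and 15.2, chondrocyte markers to 30.5 and 37.4, and neural markers to 55.3 and 46.7. Smooth muscle and pericyte markers summed to 216 CPM in members and 177 in resting cells, with a UMI in 73.1% of members and 45.8% of resting cells. Neural markers gave a UMI in 43.4% and 29.1%. The part of these differences in the results was not tested. Members thus carried fibroblast markers with cycle transcripts, as the label says, and the muscle, endothelial and erythroid markers were near 0.

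The rule counted a median of 10 Top2a plus Mki67 UMIs per member, from 3 to 51. Cells just inside and just outside the rule formed a gradient. Cenpf, which the rule did not count, was at 8.59 CPM in cells with 0 rule UMIs, 15.8 with 1, 36.5 with 2, 77.6 with 3, 77.5 with 4 and 178 with 5 or more, among cells of at least 5000 UMIs. Ccnb1, the cyclin of mitotic entry, went from 1.95 CPM at 0 through 13.6 at 1, 35.9 at 2, 56.6 at 3 and 89.9 at 4 to 158 at 5 or more. Col1a1 stayed between 1899 and 2311 CPM over the same 6 bins. Cells with 1 or 2 rule UMIs thus lay, as pooled bins, between resting cells and the lowest members.

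At least 20 CPM on the higher side were found for 6038 genes in MEF, and 445 of them, 7.37%, were at least 2-fold higher in cycling cells, with 59 (0.977%) at least 2-fold lower. At 5 CPM, the level used for gene lists, the shares were 7.76% higher and 1.37% lower of 9749 genes. These percentages are the background against which the lists stand, and nothing is read from them alone, since the rule used this contrast. Over all genes of at least 5 CPM the median log2 ratio was 0.06.

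**Figure D1:**
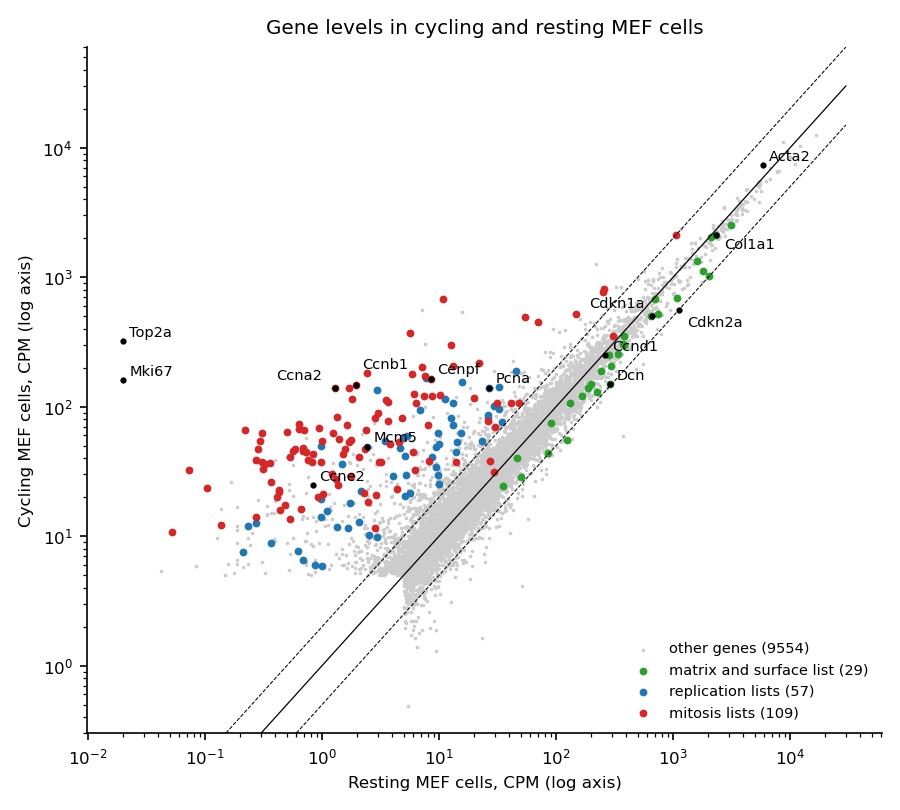
Level of each gene of at least 5 CPM in either set, in resting (x) and cycling (y) MEF cells, both on log axes in CPM. The solid line is equality and the dashed lines 2-fold. Top2a and Mki67 are 0 in resting cells by the rule and sit at the left edge. All 57 replication genes (blue) and 106 of 109 mitosis genes (red) lie above the upper dashed line, and the 29 matrix genes (green) lie below equality, 1 of them past the lower dashed line.

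DNA replication genes were higher in members as a block: all 57 of the replication genes with 5 CPM were at least 2-fold higher, with a median log2 ratio of 2.77 (1 further gene was below that level). In cells of at least 10000 UMIs the median was 2.73. In cells thinned to 5000 UMIs, with members chosen at 2 rule UMIs or more, it was 2.58. The licensing and origin list had 23 of 23 genes higher and a median of 2.77. Mcm5, a subunit of the helicase, was at 49.3 CPM in cycling and 2.45 CPM in resting cells (log2 ratio 4.33, 4.11 to 4.56). Cdc6, which loads the helicase, was at 12.1 against 0.231 CPM, and Clspn, which passes on the stalled-fork signal, at 49.7 against 0.987. Dbf4, the activator of the Cdc7 kinase that fires origins, was at 114 against 11.2 CPM. Fork genes had 24 of 24 higher with a median of 2.59. Pcna, the sliding clamp, was at 140 CPM in members and 26.9 in resting cells, a log2 ratio of 2.38 (2.29 to 2.47), below the median of the list. Prim1, the primase, was at 35.9 against 1.49 CPM. Nucleotide supply had 10 of 10 higher with a median of 2.92, and in it Tk1, thymidine kinase, was at 134 against 2.96 CPM, and Rrm2, the regulated subunit of ribonucleotide reductase, at 166 against 7.81.

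Chromatin assembly and heterochromatin genes were all at least 2-fold higher too, 20 of 20 with a median of 2.71. Hmgb2, a chromatin protein of dividing cells, was at 537 CPM against 15.7 (log2 ratio 5.09), whereas its relative Hmgb1 was at 833 against 326 (1.35). The histone variant gene H2afz was at 1274 against 219 CPM. Of the G1/S cyclins, kinases and E2F factors, 8 of 10 were higher, with a median of 1.80. Ccne2, cyclin E2, was at 24.9 CPM in members and 0.829 in resting cells (4.91, 4.55 to 5.29), while Ccne1 was at 75.6 and 16.2 (2.22). The repressor E2F genes E2f7 and E2f8 had log2 ratios of 5.35 and 4.48, the activator E2f1 0.99 and E2f3 -0.11. The E2F family thus ranged from equal levels in both sets (E2f3, 18.2 against 19.7 CPM) to a gene hardly seen in resting cells (E2f7, 0.367 CPM).

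Mitosis genes had larger ratios than replication genes. Members were chosen on Top2a and Mki67 and resting cells on their absence, so this order is not read as a result. Of 109 mitosis genes with 5 CPM, 106 were at least 2-fold higher, with a median log2 ratio of 4.84. It was 4.94 in cells of at least 10000 UMIs and 4.22 in thinned cells chosen at 2 rule UMIs or more. The 3 others were Kif5b, a cargo motor (0.21), and the cohesin subunits Stag1 (0.48) and Stag2 (0.09), which work outside mitosis as well. Among cyclins, kinases and regulators (23 of 23, median 5.45), Ccna2 was at 139 CPM in cycling and 1.28 CPM in resting cells (6.76), Ccnb1 at 146 against 1.95 (6.23, 6.01 to 6.45), and Cdk1, their kinase, at 300 against 12.6 (4.57). Pbk, a mitotic kinase, was at 54.0 against 0.294. At the centromere and kinetochore (27 of 27, median 4.44), Cenpf was at 165 against 8.59 CPM (4.26, 4.15 to 4.38). Cenpe, the kinetochore motor, was at 139 against 1.71, and Knl1, the scaffold of the checkpoint, at 47.5 against 0.283. Spindle and motor genes (26 of 27, median 5.18) included Nusap1, a microtubule bundling protein, at 66.2 against 0.220 CPM (8.23, 7.61 to 8.93), and Kif11, the motor that pushes the poles apart, at 62.6 against 0.304. The tubulin gene Tubb5 was at 2111 against 1052 CPM. Sister chromatid genes (15 of 17, median 3.80) included the acetyltransferase of cohesin, Esco2, at 32.7 against 0.0735 CPM (8.80, 7.74 to 10.1). That ratio rested on 7 resting UMIs, and in thinned cells it was 5.86, below the 7.24 of Nusap1. The condensin subunits Smc2 and Smc4 were at 207 against 13.1 and at 217 against 21.8. APC/C and cytokinesis genes (15 of 15, median 4.99) included Ube2c, its ubiquitin-conjugating enzyme, at 685 against 10.9 CPM, and Birc5, survivin, at 374 against 5.68. Ube2s, which extends the chains, was at 816 against 258.

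Homologous recombination and checkpoint genes were higher in 20 of 21 (median 4.62). Nuclear envelope and transport genes were higher in 10 of 12 (median 1.91). Lmnb1, lamin B1, was at 85.1 against 5.96 CPM (3.84), and Lmna, lamin A, at 613 against 508 (0.27). Of these 2 lamin genes, Lmnb1 therefore differed and Lmna hardly did. Over all cycle lists 221 of 229 genes were at least 2-fold higher, against 7.76% of all genes.

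**Figure D2:**
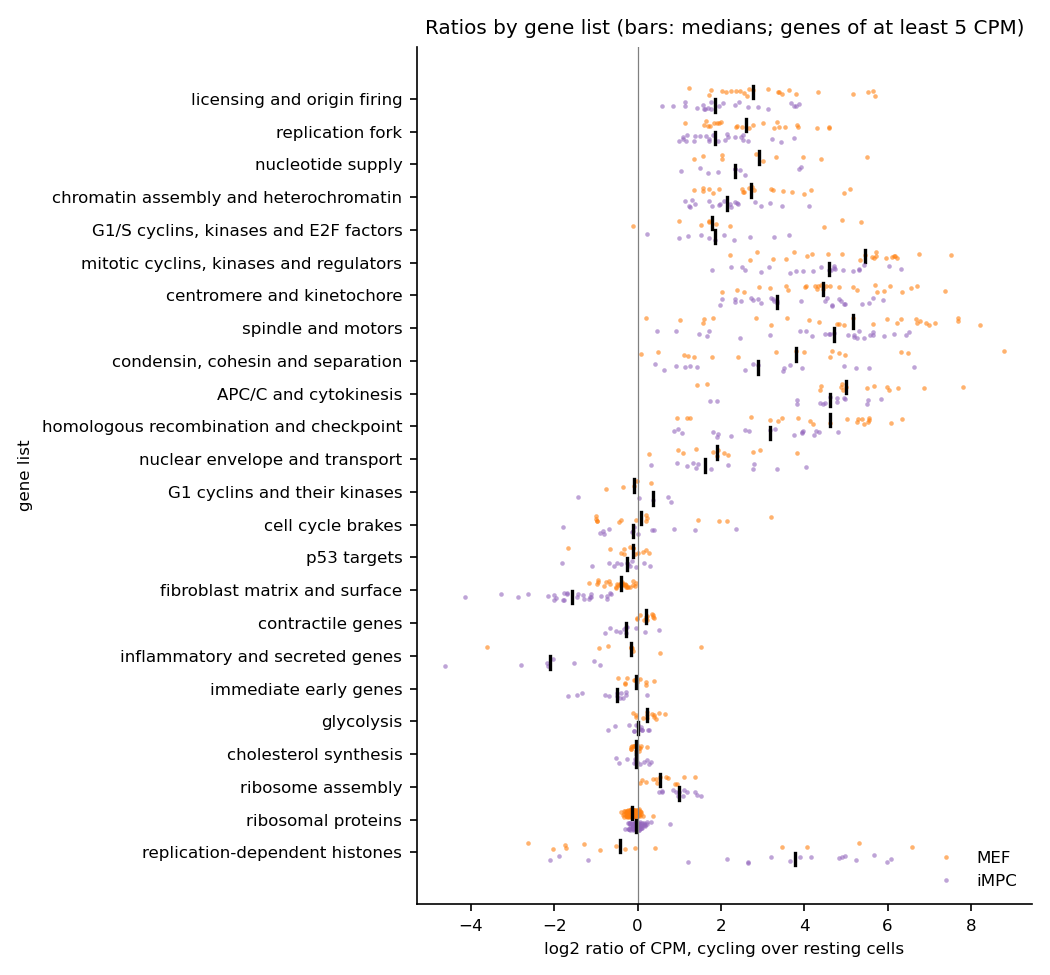
log2 ratio of CPM, cycling over resting cells (x), for each gene of at least 5 CPM in each list (y), in MEF (orange) and iMPC (purple). Black bars are medians. All but 1 of the 229 cycle genes measured in MEF, in the lists at the top, lie right of 0. The matrix list lies at -0.40 in MEF and -1.57 in iMPC. The histone list has genes on both sides of 0, with medians of -0.42 in MEF and 3.78 in iMPC.

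How many members showed a given transcript was compared after thinning cells to 5000 UMIs, which left out 4 members. Pclaf, a Pcna-bound factor, gave a UMI in 87.9% of cycling cells (84.6 to 90.7) and 3.48% of resting cells. Ube2c did so in 81.7% and 5.30%, Ccnb1 in 46.1% and 0.993%, Mcm5 in 21.9% and 0.993%, and Ccne2 in 11.7% and 0.517%. Before thinning, these genes gave a UMI in 98.7%, 97.7%, 80.4%, 64.6% and 35.8% of members. Most members therefore showed Pclaf and Ube2c, and a minority showed the G1/S cyclin. These shares describe members as chosen, since any dividing cell without a Top2a or Mki67 UMI was not among them. As a measure of background, 648 differentiated iMPC cells (at least 10 Ckm and 10 Myh3 UMIs) gave 4.48% for Pclaf, 11.4% for Ube2c, 2.78% for Ccnb1, 0.772% for Mcm5 and 1.39% for Ccne2 after thinning. These muscle cells came from the other library and held a median of 46096 UMIs before thinning. For these 5 genes the shares in resting MEF cells were near or below theirs, but for Mcm6, a helicase subunit, the share was 5.92% (5.27 to 6.62) in resting MEF cells against 2.62% (1.54 to 4.17). For Stmn1, a tubulin-binding protein, it was 21.3% against 13.0%, and for Cenpf 4.03% against 2.62%. Members gave 28.7% for Mcm6, 85.6% for Stmn1 and 42.5% for Cenpf.

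Within the members, cells differed in their mix of S and G2/M transcripts. For each member the G2/M share of its phase UMIs was taken (52 G2/M and 43 S genes, a median of 230 UMIs per cell), and members were put in 5 ranges of 95 cells by this share. The share had a median of 0.761 and ran from 0.297 to 0.976, with no gap between ranges, so a range is not a cell state. Genes of the 2 lists follow the order by construction. Ccne2 went from 76.3 CPM in the lowest range through 33.4, 14.6 and 4.36 to 0.418 CPM in the highest, Pcna from 271 to 46.4 and Cdc20, the APC/C activator, from 38.8 to 439. Genes outside both phase lists were free to differ. Ccnb1 went from 34.0 through 77.2, 117 and 193 to 307 CPM, Ccna2 from 86.0 to 194 and Plk1, the polo kinase, from 19.9 to 169. Ccna2 thus varied less across the ranges than Ccnb1.

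The histone list, summed, was highest in the middle of the order, at 812 CPM in the third range, but single histone genes differed. Hist1h2ap was at 233, 411, 511, 294 and 54.4 CPM over the 5 ranges, and Hist1h1b at 28.7, 57.1, 61.7, 34.5 and 7.53. Hist1h2bc was lowest in the middle, at 71.9, 70.8, 42.5, 55.5 and 58.5 CPM, and Hist1h1c stayed between 23.8 and 30.1 CPM. Pclaf was highest in the second range (828 CPM) and lowest in the fifth (347). Arl6ip1, an endoplasmic reticulum shaping protein, was at 169 CPM in the lowest range and 961 in the highest, Knstrn, a spindle protein, at 18.5 and 125, and Cdkn3, a phosphatase of Cdk1, at 8.83 and 126. Thbs1, a secreted matrix protein, went the other way, from 1629 to 706 CPM, and so did Ccl2, a chemokine, from 640 to 244. Matrix genes summed to 19065 CPM in the lowest range and between 13982 and 15829 in the other 4, and contractile genes went from 22858 to 18341. Cdkn1a, the p21 inhibitor, was lowest in the lowest range, 337 CPM against 471 to 618 in the others. Median depth was 22236 UMIs in the lowest range and 24950 to 25661 in the others. Its part in these values was not tested.

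**Figure D3:**
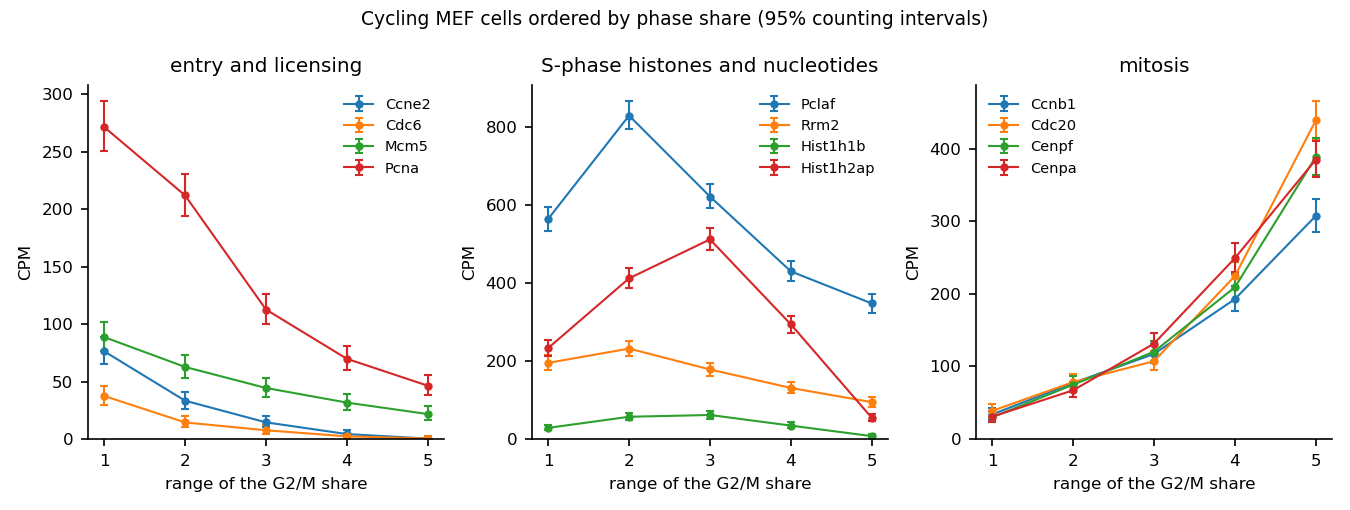
CPM (y, linear, from 0) of 12 genes in the 5 ranges of the G2/M share (x, 1 lowest to 5 highest, 95 cycling MEF cells each), with exact Poisson 95% intervals. Entry and licensing genes decline, Hist1h2ap reaches 511 CPM in range 3, and mitosis genes climb to 307 CPM or more in range 5. Pclaf, Hist1h1b, Hist1h2ap and Ccnb1 were not used for the ordering.

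Brakes of the cycle did not all go one way. Of 14, 4 were at least 2-fold higher in members and 1 lower, with a median log2 ratio of 0.08. Cdkn2a, the locus of p16 and p19Arf, which 3′ counts do not separate, was at 554 CPM in cycling and 1115 CPM in resting cells (log2 ratio -1.01, -1.05 to -0.98). Per cell the median was 483 CPM in members and 1022 CPM in resting cells, and 95.6% of members still held a UMI. Its neighbour Cdkn2b, the p15 gene, was at 63.5 against 126 CPM (-0.99). Cdkn1a was at 499 against 661 (-0.41) and Cdkn1c, p57, at 83.3 against 164 (-0.98). The 4 higher were the INK4 genes Cdkn2c (p18) at 36.5 against 9.48 CPM and Cdkn2d (p19) at 63.0 against 14.1, the p27 gene Cdkn1b at 27.1 against 9.87 and the pocket protein gene Rbl1 at 12.1 against 1.31. INK4 genes thus lay on both sides of equality, Cdkn2a and Cdkn2b lower, Cdkn2c and Cdkn2d higher. G1 cyclins and their kinases had none of 5 past 2-fold: Ccnd1, cyclin D1, was at 250 against 265 CPM (-0.08) and Ccnd2 at 559 against 951 (-0.77). Of 13 p53 targets, Perp, a gene of cell junctions and death, was 2-fold lower (20.4 against 64.8 CPM) and the other 12 were under 2-fold, with a list median of -0.12.

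Replication-dependent histone genes, whose transcripts mostly carry no poly(A) tail and so are sampled in part by this assay, split in MEF. Of 14 with 5 CPM in MEF, 4 were at least 2-fold higher and 5 lower, with a median log2 ratio of -0.42. In iMPC 15 of 18 were at least 2-fold higher and 3 lower, with a median of 3.78. Only 10 of these genes had 5 CPM in both cultures. Levels in MEF follow. Hist1h1b was at 38.5 against 0.399 CPM, Hist1h2ap at 306 against 7.63 and Hist1h1e at 14.2 against 0.840. Hist1h2bc was at 59.5 CPM in cycling and 371 in resting cells (-2.64, -2.75 to -2.54), and Hist1h1c at 26.8 against 65.8. Hist1h2bc gave a UMI in 19.3% of thinned members (15.9 to 23.2), in 68.5% of resting MEF cells and in 74.1% of the differentiated iMPC cells. Resting and cycling iMPC cells gave 28.6% and 11.2%, so the cycling set was the lower one in both cultures, while resting cells differed widely between them. Near-identical copies make levels of single histone genes uncertain.

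Fibroblast matrix and surface genes were lower in members, mostly by less than 2-fold. All 29 with 5 CPM had ratios below 0, while 5492 of all 9749 genes had ratios above 0. Only Aspn passed 2-fold (55.6 against 124 CPM, -1.16), and the list median was -0.40. Col1a1 was at 2125 CPM in cycling and 2311 in resting cells (-0.12, -0.14 to -0.10), Col1a2 at 2040 against 2105 and Thy1, a fibroblast surface protein, at 678 against 705. These 3 were the nearest to equality, and their sign turned in thinned cells, with log2 ratios of 0.03 for Col1a1 and 0.07 for Col1a2. Fibronectin, Fn1, was at 1126 against 1807 CPM (-0.68), Thbs1 at 1029 against 2011 (-0.97) and the proteoglycan gene Dcn at 151 against 290 (-0.94, -1.01 to -0.88). The list median was -0.31 over the means of each cell's own CPM and -0.29 in thinned cells.

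Contractile genes lay slightly above 0, with a median of 0.21, 10 of 12 above 0 and none past 2-fold. Over all genes the median was 0.06, with 5492 of 9749 above 0. Acta2, smooth muscle actin, was at 7341 against 5819 CPM (0.34). Its spread over cells differed more than its sum. Per cell the median was 6178 CPM in members and 2905 in resting cells, and the lower quartile 3711 against 469, whereas the upper quartiles were 9801 and 7885. Few members thus had low Acta2. Tagln, transgelin, had per-cell medians of 3404 and 2018 CPM.

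The same was seen from the other side. All 5759 MEF cells of at least 5000 UMIs were thinned to 5000, ranked by a gene and cut in 4 bins, and cells with a Top2a or Mki67 UMI were counted in each. By Acta2 their share was 2.29% in the lowest bin (1.58 to 3.20), then 7.78%, 14.5% and 13.5% in the highest (11.8 to 15.4). By Fn1 it was 13.7%, 13.4%, 7.15% and 3.82% (2.89 to 4.95). By Col1a1 it lay between 8.54% and 10.2% and by Thy1 between 8.61% and 10.7%. Cells with cycle UMIs were thus scarce where Acta2 was low and where Fn1 was high, and about even over Col1a1 and Thy1. By Dcn the highest bin had 5.35% and the other 3, of which the first is all cells at 0, 8.82% to 12.9%. In iMPC the Fn1 bins gave 57.5%, 57.4%, 44.7% and 18.3%.

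**Figure D4:**
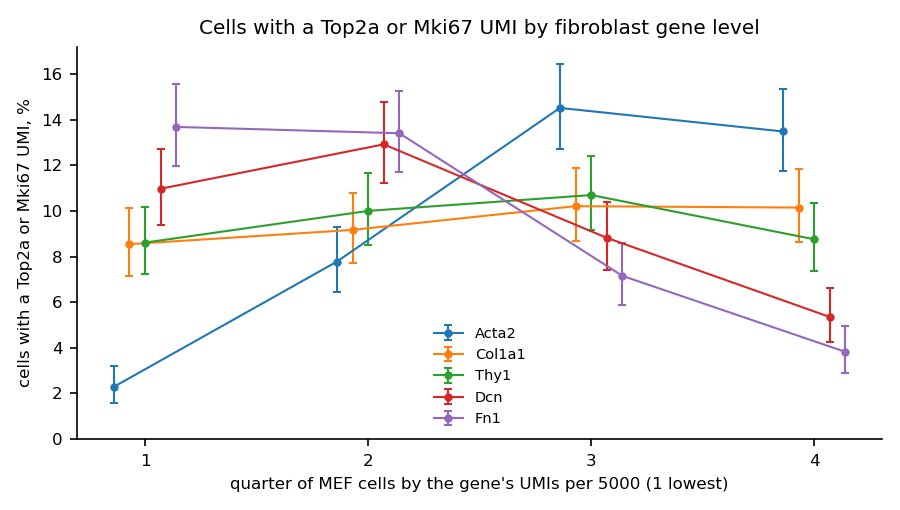
Share of MEF cells with a Top2a or Mki67 UMI (y, %, exact binomial 95% intervals) in 4 equal bins of cells by the UMIs of 5 fibroblast genes per 5000 (x, 1 lowest, 1439 or 1440 cells each; points are offset sideways). The Acta2 line climbs from 2.29% to over 13%, the Fn1 line drops from 13.7% to 3.82%, and Col1a1 and Thy1 stay near level.

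The remaining groups had at most 2 genes each past 2-fold. Glycolysis had a median of 0.23 with none of 13 past 2-fold, Ldha, lactate dehydrogenase, being at 615 against 390 CPM (0.66). Ribosome assembly had all 13 genes above 0, where 5492 of all 9749 genes were, with a median of 0.53. Of them 2 were past 2-fold, Dkc1 (50.7 against 19.7 CPM) and Nop58 (113 against 51.7), both of snoRNA particles. Ribosomal protein genes had a median of -0.13 over 80 genes, cholesterol synthesis -0.04 over 14 and immediate early genes -0.04 over 12.

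Among the 10 most lowered genes outside the cycle lists, at 20 CPM or more, Ccl8 and Mmp3 had the lowest ratios. Ccl8, a chemokine, was at 1.63 CPM in cycling and 23.3 in resting cells (-3.84, -4.55 to -3.21), and Mmp3, stromelysin, at 4.15 against 51.3 (-3.63). Mmp3 depended on the cut: with at least 2 rule UMIs in place of 3 its log2 ratio was -2.07. Sfrp2, a secreted Wnt modulator, was at 13.7 against 57.1, Cpxm1, a carboxypeptidase-like protein, at 10.6 against 40.1, Pltp, a phospholipid transfer protein, at 7.33 against 24.4 and Mmp19 at 8.31 against 25.2. Mmp3 gave a UMI in 28 members and 640 resting cells, and Sfrp2 in 62 and 1290. The largest ratios above 0 outside the cycle lists included genes with known parts in division: Aunip, an Aurora A partner (26.3 against 0.168 CPM), Depdc1a (37.4 against 0.262), Pimreg (57.8 against 0.724), Pclaf (560 against 7.22), Mxd3 (35.7 against 0.567), Shcbp1 (42.5 against 0.735), Spag5, astrin (25.3 against 0.525), and Gas2l3 (22.7 against 0.525). Of the 13 inflammatory and secreted genes, 9 had 5 CPM, with a median log2 ratio of -0.15. Mmp3 was the 1 that was 2-fold lower, and 1 was 2-fold higher, Ptx3, at 19.1 against 6.63 CPM, with 41.9% of its UMIs in members held by 5 cells.

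In iMPC, 5827 genes had 20 CPM in either set, of which 8.8% were at least 2-fold higher and 7.55% lower in cycling cells. At 5 CPM these were 8.13% and 9.03% of 9731 genes. In both cultures 5041 genes had 20 CPM, and 328 of them, 6.51%, were at least 2-fold higher in cycling cells of both. That was 80.6% of the 407 higher in MEF and 76.5% of the 429 higher in iMPC. Of the 328, 165 were in the cycle lists, as were 4 of the 79 higher in MEF alone and 1 of the 101 higher in iMPC alone. Listed genes were few among all genes as well, 226 of the 8898 with 5 CPM in both cultures. The counts for 1 culture alone are therefore not read as a result. Genes 2-fold lower in both were 26, or 0.516%. They made up 81.3% of the 32 lower in MEF but 8.50% of the 306 lower in iMPC. Missing the 2-fold line in 1 culture does not show that the cultures differ in that gene.

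Cycle genes stood further from rest in MEF than in iMPC. Over 226 cycle genes with 5 CPM in both, 186 had the larger log2 ratio in MEF, and the median difference was 0.67, against 0.03 over all 8898 genes. For replication genes the medians were 2.77 in MEF and 1.95 in iMPC, for mitosis genes 4.84 and 4.45. Levels in the cycling cells themselves were compared too. The median log2 ratio of cycling MEF over cycling iMPC cells was -0.15 over these genes, with 86 higher in MEF. Over all 8898 genes it was 0.17, with 5278 higher in MEF, so cycle genes lay below that background. The replication genes summed to 3055 CPM in cycling MEF and 3174 in cycling iMPC cells, but to 542 and 935 in resting cells, and the mitosis genes to 13301 and 13958, against 2676 and 2780. Of single genes, chosen after their values were seen, Mcm5 was at 2.45 CPM in resting MEF and 6.14 in resting iMPC cells, Ccna2 at 1.28 and 2.77, Ube2c at 10.9 and 42.3, and Hmgb2 at 15.7 and 88.1. Resting MEF cells thus held fewer replication transcripts than resting iMPC cells did. The resting sets were unlike in depth, with medians of 18836 UMIs in MEF and 14848.5 in iMPC. Cycling cells were 7.90% of the MEF cells and 42.5% of the iMPC cells compared. The part of these differences in the gap between cultures was not tested. In thinned cells the median difference was 1.02.

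Some cycle genes went against this. Cenpf was at 165 CPM in cycling MEF and 322 CPM in cycling iMPC cells, with 8.59 and 6.87 in resting cells, a difference of log2 ratios, MEF minus iMPC, of -1.29. Kpna2, an importin, had ratios of 2.77 and 4.04. The imprinted and developmental genes Nnat (67.8 against 32.5 CPM in MEF, 363 against 54.4 in iMPC), Mest (43.4 against 31.8, and 536 against 146) and Cdkn1c (83.3 against 164, and 225 against 171) also had the larger ratio in iMPC. The activin receptor gene Acvr2a had ratios of -0.61 in MEF and 1.05 in iMPC, Crabp2, a retinoic acid carrier, -1.19 and 0.28, and Enc1, an actin-binding protein, -0.50 and 0.72. Cdkn1c, Acvr2a, Crabp2 and Enc1 thus had opposite signs in the 2 cultures.

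The genes with the larger ratio in MEF included 2 of the matrix and surface list. Lum, lumican, was at 24.6 against 35.5 CPM in MEF and 1.75 against 30.8 in iMPC, and Pdgfra, a growth factor receptor, at 75.4 against 90.6 and 3.71 against 27.1. Ptgs2, Cox-2, was at 46.1 against 55.0 and 15.2 against 153. Gpr137b was at 21.0 against 23.3 and 13.0 against 79.1, Fxyd5 at 36.8 against 18.2 and 9.56 against 36.1, and Plac8 at 157 against 120 and 11.3 against 47.2. In cycling MEF cells Fxyd5 and Plac8 were thus above rest level, and Lum, Pdgfra, Ptgs2 and Gpr137b were below it by less than 2-fold. In cycling iMPC cells all of these genes were far below rest level. The matrix list had a median of -1.57 in iMPC with 21 of 26 genes at least 2-fold lower, and all 26 had the lower ratio there. Col1a1 gave a UMI in 27.5% of resting iMPC cells and 14.1% of cycling ones, but in 95.7% and 100% in MEF, so Col1a1 was seen in more of the resting than of the cycling iMPC cells. The 6 fibroblast markers summed to 2723 CPM in resting and 1051 CPM in cycling iMPC cells, though 98.7% and 99.4% of cells held at least 1 UMI of them. The part of this difference in the iMPC ratios was not tested.

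The widest gaps rested on few cells. Ccl5, a chemokine, was at 38.9 against 2.59 CPM in MEF and 2.83 against 40.5 in iMPC, but 69.5% of its 478 UMIs in members came from 5 cells and 19 members had any. For Cck, the cholecystokinin gene, at 44.6 against 62.5 CPM in MEF and 24.7 against 467 in iMPC, 5 cells held 69.7% of the UMIs of 475 members. The counting intervals of such genes leave out the spread between cells and are too narrow.

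**Figure D5:**
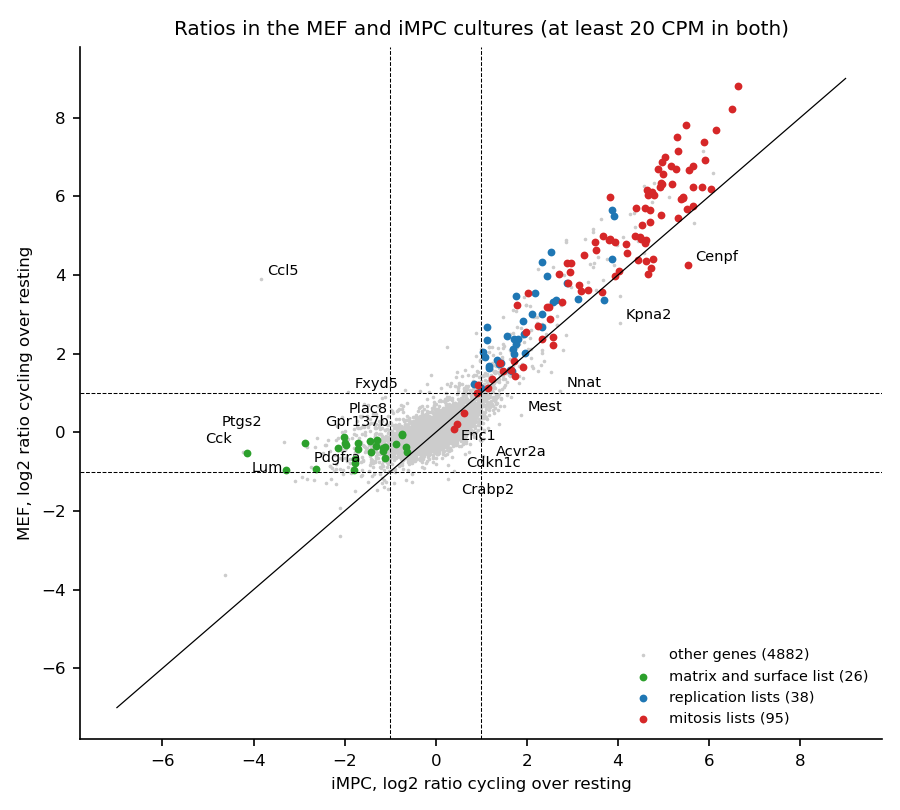
log2 ratio, cycling over resting, in iMPC (x) and MEF (y), for genes of at least 20 CPM in both cultures; dashed lines mark 2-fold and the solid line equality. Most mitosis (red) and replication (blue) genes lie above equality, Cenpf and Kpna2 below it, and matrix genes (green) near -0.40 in MEF but further left in iMPC.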

How the data were processed

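Per the labels' protocols, cells were captured with the 10x Genomics 3′ kit, version 3. Per the submitters' processing notes, Cell Ranger 4.0, Seurat 3.2.3 and GRCm38.p6 were used. The deposited matrices hold raw UMI counts, with no normalization by the authors recorded. The iMPC matrix lists 6794880 barcodes (282903287 UMIs), of which 9540 had at least 8036 UMIs. The MEF matrix lists 6113 barcodes (118293288 UMIs over the 26100 shared genes). Barcodes with under 500 genes or over 20% mt- UMIs were removed, leaving 9349 and 6013 cells.

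UMIs were summed per set and scaled to CPM. Intervals are exact 95% (Poisson for levels, conditional binomial for ratios, Clopper-Pearson for shares), and UMIs cover counting error only. Those of differences between cultures use summed log variances. A set with 0 UMIs took a floor of 3 counts. Thinning drew 5000 UMIs per cell without replacement. The ratio code was tested on simulated counts. Doublets were not removed: Scrublet (scanpy 1.11.5) marked 0 MEF cells, so it had not worked there, and it marked 337 iMPC cells (3.60%). Analysis used Python 3.11.15, numpy 2.4.6, scipy 1.17.1 and pandas 2.3.3.

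The members and gene lists were chosen with earlier results of these data known. Named genes are 14 fixed genes, per list the 3 with the highest CPM in members and the 3 with the largest ratio at 5 CPM, the 10 largest ratios each way outside the cycle lists at 20 CPM, and the 8 largest differences each way between cultures. Other genes named, those over the phase ranges included, were chosen after their values were seen. Of repeated gene symbols, the lowest identifier kept the symbol. Positions are from GENCODE M21 (GRCm38). Alternatives covered the UMI cut, depth, scaling, doublet scores, mt- share, the level filter and the iMPC cells compared. The MEF sample bears the treatment protocol text of the iMPC sample, and its own treatment label was used.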

Additional observations from a re-analysis of the deposited data

How the results depend on the processing

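Of 79 values recomputed for 8 results under 13 alternatives, none turned its direction, 63 stayed within a set range and 16 moved. That range was the binomial interval for the share and within 1.5 times for counts. For medians it was the counting interval of the gene or genes at the median, 2.30 to 3.24 for replication genes. It is not an interval of the median itself, so staying within it is a loose measure. The cause was not tested unless the alternative itself gives it. The share of MEF cells in the cycling set was 9.30% at 2 rule UMIs, 6.57% at 5, 8.99% among cells of at least 10000 UMIs and 5.35% in thinned cells chosen at 2 rule UMIs. Thinning together with that cut gave medians of 4.22 for mitosis genes and -0.29 for matrix genes, a difference between cultures of 1.02 and 93 genes 2-fold lower. Means of each cell's own CPM gave -0.31 for matrix genes, and a total without mt- and ribosomal protein genes gave 95 genes 2-fold lower. At 5 CPM 757 genes were higher, 134 lower and 535 higher in both cultures, and with no level filter 4368, 684 and 1195, many on a few UMIs. Only resting MEF cells with a Col1a1 UMI, an alternative chosen after seeing the data, gave 437 higher and 63 lower genes. No paired analysis was possible because each culture is 1 library. The limits are the single library per culture, sets chosen on the genes' own cells, deeper members, unremoved doublets (39 members, 8.21%, were among the 5% highest MEF scores, against 4.61% of resting cells) and a rule that misses cycling cells of low depth. The rule also passes over dividing cells with few or no Top2a and Mki67 UMIs, and those with none can count as resting.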

Other observations

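Among resting MEF cells, 210 (4.35%) held no Col1a1 UMI, and no member was without one. They had a median of 7240 UMIs, against 19278 in the resting cells with Col1a1, and 4.08% mitochondrial UMIs, against 5.95%. Their S genes summed to 233 CPM, against 333 in the other resting cells, and their G2/M genes to 916 against 1126. Some single cycle transcripts were higher in them: Ube2c was at 72.5 against 9.71 CPM, Cenpa at 50.7 against 6.79, Pclaf at 40.3 against 6.61 and Birc5 at 28.2 against 5.26. Others were not higher, Pcna being at 20.1 against 27.1 CPM and Mcm5 at 1.73 against 2.46. The chromatin gene Hmga1 was at 261 against 35.0 CPM, and at 44.9 in cycling cells. Thbs1 was at 147 against 2046 CPM, while Acta2 was at 6976 against 5798. These genes were picked after their values were seen.

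Cxcl10, a chemokine, was at 130 CPM in the members of the highest G2/M share and at most 34.1 CPM in the other 4 ranges, with 88.8% of its 436 UMIs in members held by 5 cells. Dlk1, a gene of the same top range, had 49.6% of its UMIs in 5 cells.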
